A study of Mus musculus with 4 samples.

Results

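Fc receptors bind the constant part of antibodies and so tie antibody recognition to what a macrophage does next. The genes described here are 8 mouse genes of this system, chosen by name: the IgG receptor genes Fcgr1, Fcgr3 and Fcgr4 and the IgE receptor gene Fcer1a, which are activating, the inhibitory IgG receptor gene Fcgr2b, the recycling receptor gene Fcgrt, and the signalling adaptor genes Fcer1g and Tyrobp. All 8 of the 8 had a transcript cluster with 1 gene symbol on the array, out of 22180 named genes. They were measured on 4 Affymetrix arrays of macrophages from ear skin of untreated adult C57Bl/6 mice with the genotype Cx3cr1+/gfp, which carry GFP in 1 Cx3cr1 allele and keep 1 intact allele. The groups, CX3CR1low and CX3CR1bright, were separated by cell sorting, with 2 arrays each. Each array held RNA of 3 to 6 pooled mice, and the 2 arrays of a subset came from 2 independent litters. All cells of both groups therefore carry the reporter allele.

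Activating IgG receptors have little or no signalling domain of their own and pair with the Fc receptor gamma chain, the product of Fcer1g, whose tyrosine motif is phosphorylated by Src-family kinases and then binds the kinase SYK. FcγRIIB, the product of Fcgr2b, carries an inhibitory tyrosine motif that recruits the phosphatase SHIP1, and the balance between it and the activating receptors sets the threshold for the response to immune complexes. The neonatal Fc receptor, encoded by Fcgrt, works inside endosomes with β2-microglobulin and returns IgG and albumin to the cell surface. DAP12, the product of Tyrobp, is a further adaptor with the same kind of motif, used by TREM and related receptors.

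Levels are on the log2 scale that RMA, a summary of each gene's probes, returns. The median level of an array was 3.65 to 3.68 and its upper quartile 5.44 to 5.52. Cx3cr1, the gene of the gate, stood at 3.63 and 3.60 on the CX3CR1low arrays and at 8.42 and 8.44 on the CX3CR1bright arrays. Of the 12 macrophage markers measured, Fcgr1 among them, 12 were tested and 0 lay below the medians of all arrays. In CX3CR1bright cells 3 of the 12 were higher and 9 lower, with a median difference of -0.35 against -0.070 over all tested genes. All 9 were lower without overlap, as were 31.5% of all tested genes. None of the 12 passed the test (limma, 3 lower at an unadjusted p under 0.05, against 11.8% of all tested genes). The part of the 12 markers in the differences of the Fc receptors was not tested. The log2 of their summed level was 14.55 and 14.59 on the CX3CR1low arrays and 14.32 and 14.30 on the CX3CR1bright arrays. Each difference is the CX3CR1bright mean less the CX3CR1low mean in log2 units, given with limma's standard error, and n = 2 arrays per subset throughout. In sorted bulk samples, fewer cells of a type and less RNA per cell cannot be told apart.

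**Figure D1:**
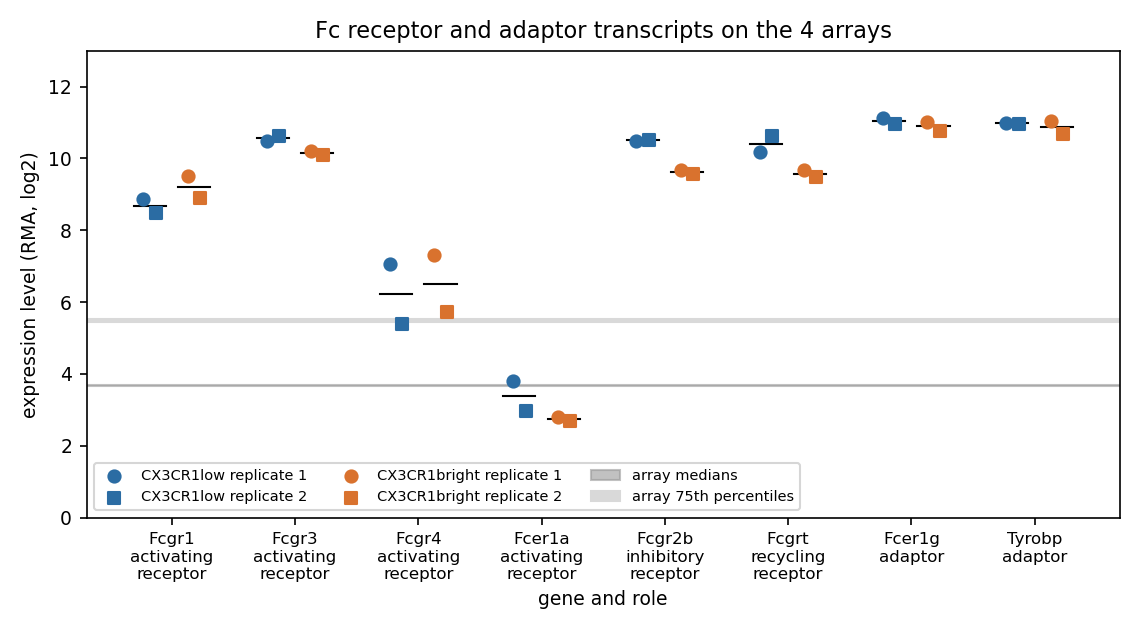
Expression level (RMA, log2) of the 8 Fc receptor and adaptor genes on the 4 arrays. Circles are replicate 1, squares are replicate 2, short lines are group means, and grey bands are the ranges of the array medians and upper quartiles. Fcer1g and Tyrobp lie near 11 in both subsets, Fcgr2b and Fcgrt lie lower on both CX3CR1bright arrays, Fcgr4 differs more between replicates than between subsets, and Fcer1a lies near or below the medians.

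Of the 8 genes, 7 passed the filter on dim genes and were tested, and Fcer1a was too dim. None of the 7 passed an adjusted p of 0.05 over the 13133 genes tested (limma, 2 at an unadjusted p under 0.05), where 0.137% of all tested genes passed. The 2 genes at an unadjusted p under 0.05, Fcgr2b and Fcgrt, were both lower in CX3CR1bright cells, as were 11.8% of all tested genes, and 0 were higher, against 7.03%. The subsets did not overlap for 4 of the 7, against 50.4% of all tested genes, so the count itself is no result about these genes. Fcgr1 was the 1 that was higher in CX3CR1bright cells (18.9% of all tested genes), and Fcgr2b, Fcgr3 and Fcgrt were the 3 that were lower (31.5%). Of the 7 differences 2 were positive and 5 negative, or 3 and 4 after quantile normalization.

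Promoter sequences were available from RefSeq (GRCm38.p6) for 7 of the 8 genes, all but Tyrobp. The windows of the 4 IgG receptor genes are shown because Fcgr2b, Fcgr4 and Fcgr3 follow each other directly along chromosome 1, while Fcgr1 lies on chromosome 3, and because the activating and the inhibitory genes are set against each other below. Each is the 250 bases before the annotated start, on the strand of the gene. Capitals mark matches on either strand to the core GAGGAA bound by PU.1, the myeloid lineage factor, and to the core of the interferon-stimulated response element, a pair of GAAA boxes with any 2 bases between them.
Fcgr1 (chr3:96293970-96294219, minus strand): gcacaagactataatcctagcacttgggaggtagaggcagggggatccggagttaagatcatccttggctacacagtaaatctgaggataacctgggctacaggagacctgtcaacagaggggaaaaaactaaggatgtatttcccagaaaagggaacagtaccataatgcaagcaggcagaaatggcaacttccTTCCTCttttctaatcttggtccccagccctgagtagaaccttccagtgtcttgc
Fcgr2b (chr1:170976072-170976321, minus strand): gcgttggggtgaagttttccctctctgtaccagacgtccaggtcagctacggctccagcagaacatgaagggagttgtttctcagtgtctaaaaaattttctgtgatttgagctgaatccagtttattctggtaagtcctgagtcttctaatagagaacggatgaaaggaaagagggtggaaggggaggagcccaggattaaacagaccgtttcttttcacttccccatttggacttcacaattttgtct
Fcgr3 (chr1:171059404-171059653, minus strand): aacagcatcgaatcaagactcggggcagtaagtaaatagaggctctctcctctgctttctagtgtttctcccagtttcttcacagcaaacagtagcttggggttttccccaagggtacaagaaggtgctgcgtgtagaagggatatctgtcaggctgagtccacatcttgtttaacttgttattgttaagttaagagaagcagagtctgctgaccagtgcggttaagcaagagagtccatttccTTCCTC
Fcgr4 (chr1:171018676-171018925, plus strand): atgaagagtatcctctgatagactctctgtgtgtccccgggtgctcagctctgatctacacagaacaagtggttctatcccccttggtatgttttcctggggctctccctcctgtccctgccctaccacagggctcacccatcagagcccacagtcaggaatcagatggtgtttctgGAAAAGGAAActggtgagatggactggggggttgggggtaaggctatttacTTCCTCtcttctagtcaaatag
The PU.1 core was found in the windows of Fcgr1, Fcgr3 and Fcgr4, beginning 55, 6 and 22 bases before the start, and 23.3% of the 32851 windows of this length in the table hold it. Among the windows not shown, that of Fcer1a holds the core 216 bases before the start, and those of Fcer1g and Fcgrt hold neither motif. For Fcgr3, which has 2 annotated starts, the first listed was used. The paired GAAA boxes were found for Fcgr4 alone of the 4, beginning 73 bases before the start, and 2.98% of all windows hold them. The Fcgr2b window has neither motif in this stretch. Such matches describe letters and not bound sites.

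Fcgr1 (transcript cluster 17408024) encodes FcγRI, the high-affinity receptor for monomeric IgG. It stood at 8.87 and 8.48 on the CX3CR1low arrays and at 9.51 and 8.91 on the CX3CR1bright arrays. The subsets did not overlap, but the higher CX3CR1low value and the lower CX3CR1bright value were nearly equal. The difference was 0.54 ± 0.28, 1.45-fold, with an adjusted p of 0.379 (limma) and a 95% confidence interval of -0.18 to 1.25. With 1 array removed the difference was 0.24 without CX3CR1bright replicate 1 and 0.84 without the other CX3CR1bright array, replicate 2. Removing CX3CR1low replicate 2 gave 0.34 and removing replicate 1 gave 0.73.

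Fcgr3 (cluster 17229620) encodes FcγRIII, a low-affinity receptor for IgG complexes. It stood at 10.48 and 10.63 on the CX3CR1low arrays and at 10.20 and 10.09 on the CX3CR1bright arrays, so that both CX3CR1bright arrays were lower. The difference was -0.41 ± 0.19, with an adjusted p of 0.316 (limma) and an interval of -0.89 to 0.058. Fcgr3 and Fcgr1 thus had differences of opposite sign, and neither passed the test.

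Fcgr4 (cluster 17219199) encodes FcγRIV, which binds IgG2 subclasses and is known in mice as an interferon-inducible receptor of monocytes and macrophages. It stood at 7.06 and 5.39 on the CX3CR1low arrays and at 7.31 and 5.72 on the CX3CR1bright arrays. The values overlapped between the subsets: the replicate 1 arrays of both were high and the replicate 2 arrays of both were low. The difference of 0.29 ± 0.73 had an adjusted p of 0.875 (limma) and an interval of -1.55 to 2.14, the widest of the 7 tested members. It was -0.54 without CX3CR1low replicate 2, -0.50 without CX3CR1bright replicate 1, 1.13 when CX3CR1low replicate 1 was removed and 1.09 when CX3CR1bright replicate 2 was.

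Replicate 1 exceeded replicate 2 in Fcgr4 by 1.67 in CX3CR1low and by 1.58 in CX3CR1bright cells. A gap of at least 1.58 in that direction in both subsets was found for 13 of 13133 tested genes, Fcgr4 included, and a gap of that size in the other direction in both for 1. The labels do not say that equal replicate numbers share a litter or a day. For the other Fc receptors the gaps were smaller: 0.39 and 0.60 for Fcgr1, -0.15 and 0.11 for Fcgr3, and -0.012 and 0.099 for Fcgr2b. This pattern was chosen after its values were seen and has no test.

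**Figure D2:**
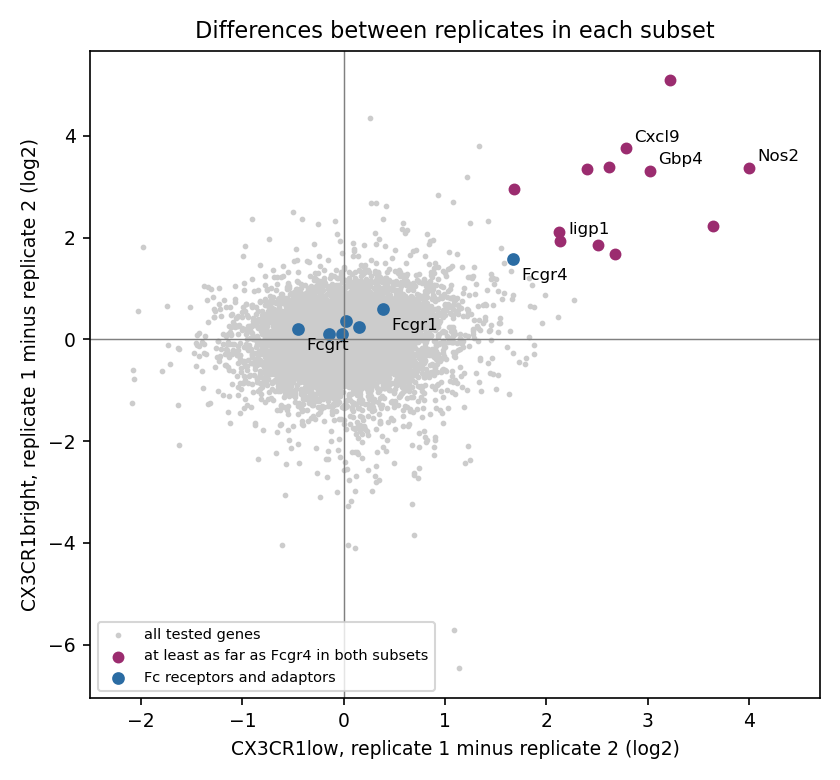
Replicate 1 minus replicate 2 (log2) in CX3CR1low cells on the horizontal axis and in CX3CR1bright cells on the vertical axis, for the 13133 tested genes (grey). Tested Fc receptors and adaptors are blue, with Fcgr4 at 1.67 and 1.58, and the other 12 genes with a gap of at least 1.58 in both subsets are purple, Nos2, Cxcl9, Gbp4 and Iigp1 among them.

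Fcer1a (cluster 17229974) encodes the IgE-binding chain of FcεRI, which is best known from mast cells and basophils. It stood at 3.81 and 2.98 on the CX3CR1low arrays and at 2.79 and 2.68 on the CX3CR1bright arrays. Only CX3CR1low replicate 1 lay above its array's median, so the gene was not tested, and its level can be background. Ms4a2, the beta chain of the same receptor, stood at 3.96 and 4.45 in CX3CR1low and at 3.85 and 4.62 in CX3CR1bright cells. It was tested, and its levels were below the upper quartiles but on every array above the medians. Mast cell proteases were well above them: Cpa3 (carboxypeptidase A3) stood at 10.03 and 10.04 on the CX3CR1low arrays and at 9.84 and 9.78 on the CX3CR1bright arrays, and the chymase gene Cma1 at 7.28 and 7.46 against 6.74 and 6.82. Of 11 tested mast cell markers, 8 were lower and 3 higher in CX3CR1bright cells. None of the 11 passed the test (limma, 3 lower at an unadjusted p under 0.05, against 11.8% of all tested genes). The log2 of the summed level of the 12 measured, Fcer1a and Ms4a2 among them, was 11.05 and 11.11 in CX3CR1low against 10.79 and 10.75 in CX3CR1bright cells. Their part in the differences of the receptors was not tested.

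Fcgr2b (cluster 17229607), the inhibitory receptor, stood at 10.50 and 10.51 on the CX3CR1low arrays and at 9.67 and 9.57 on the CX3CR1bright arrays. The CX3CR1low arrays differed by 0.012 and the CX3CR1bright arrays by 0.099, so the gap between the subsets was larger than the spread within them. The difference was -0.89 ± 0.18, 1.85-fold, with an unadjusted p of 0.00379, an adjusted p of 0.110 (limma) and an interval of -1.35 to -0.43. With 1 array left out it was -0.94 to -0.84, and over all settings tried it was -0.94 to -0.77. The adjusted p was 0.0306 with an intensity trend in the variance (limma), a setting under which 2.35% of all tested genes passed, and 0.0643 to 0.503 under the others. The adjusted p of 0.503 was that without CX3CR1low replicate 2. Fcgr2b and Fcgr3 are paralogs with similar extracellular parts, and whether their probes separate them fully was not tested.

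Fcgrt (cluster 17490589), the recycling receptor gene, stood at 10.17 and 10.62 on the CX3CR1low arrays and at 9.67 and 9.47 on the CX3CR1bright arrays. Both CX3CR1bright arrays were below both CX3CR1low arrays. The difference was -0.83 ± 0.23, 1.77-fold, with an unadjusted p of 0.0155, an adjusted p of 0.174 (limma) and an interval of -1.42 to -0.23. It was -0.60 without CX3CR1low replicate 2 and -1.05 without CX3CR1low replicate 1. Among endothelial cell markers, whose cells also use this receptor, 2 of 6 tested were higher and 4 lower in CX3CR1bright cells, and 1 of the 6 did not overlap between the subsets, against 50.4% of all tested genes. That gene, Cdh5 (VE-cadherin), stood at 6.10 and 7.09 in CX3CR1low and at 5.71 and 4.07 in CX3CR1bright cells. The log2 of the summed level of the 9 endothelial markers measured was 7.70 and 8.19 in CX3CR1low and 7.92 and 7.16 in CX3CR1bright cells, which overlap, and their part in the result was not tested.

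Both adaptors overlapped between the subsets. Fcer1g (cluster 17229658) stood at 11.13 and 10.97 on the CX3CR1low arrays and at 11.02 and 10.77 on the CX3CR1bright arrays. The difference was -0.15 ± 0.20 (limma, adjusted p = 0.733), and its interval of -0.66 to 0.35 leaves room for a change of up to 1.58-fold. Tyrobp (cluster 17476364) stood at 10.99 and 10.97 on the CX3CR1low arrays and at 11.05 and 10.69 on the CX3CR1bright arrays. Its difference was -0.11 ± 0.21 (limma, adjusted p = 0.828, interval -0.64 to 0.42), and the sign turned after quantile normalization (0.028) and without CX3CR1bright replicate 2 (0.067). The 3 tested genes whose pattern over the 4 arrays was nearest to that of Fcer1g, by Euclidean distance of values centred on each gene's mean, were Zfp36 at 0.0086, Srsf11 at 0.034 and Cflar at 0.035.

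**Figure D3:**
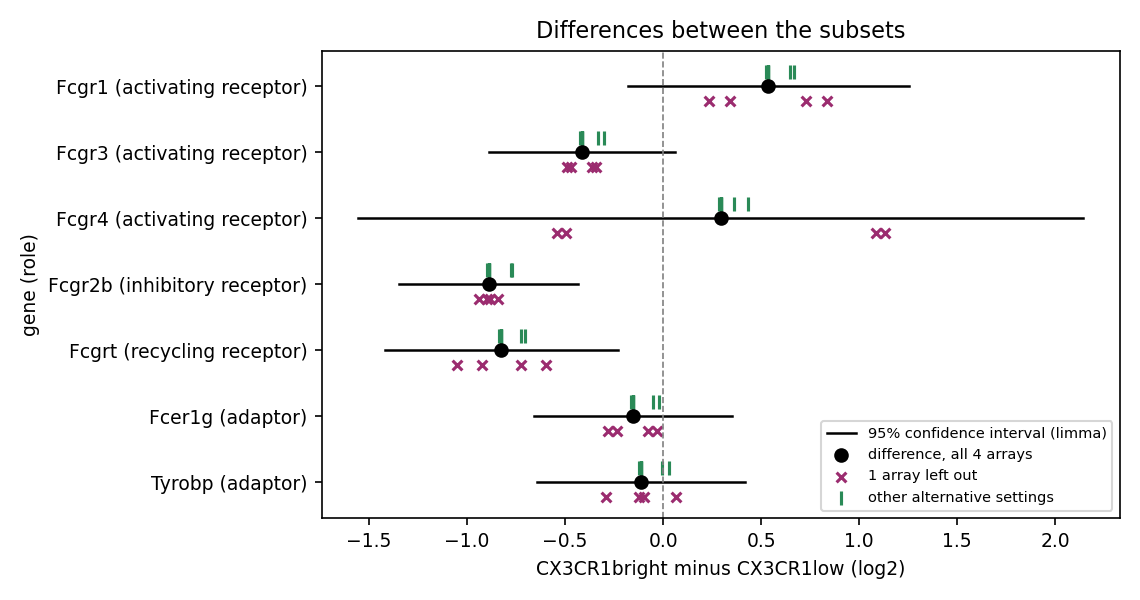
Difference CX3CR1bright minus CX3CR1low (log2) of the 7 tested Fc receptor and adaptor genes. Points are the fit on all 4 arrays with 95% confidence intervals from limma, crosses leave out 1 array and ticks are the other settings; the intervals of Fcgr2b (-1.35 to -0.43) and Fcgrt (-1.42 to -0.23) lie below 0 before adjustment over genes.

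Activating and inhibitory receptors were then set against each other within each array. Levels of different probes cannot be compared as such, so only the change of their difference between the subsets is read. Fcgr1 minus Fcgr2b was -1.63 and -2.03 in CX3CR1low and -0.16 and -0.66 in CX3CR1bright cells. The difference was higher on both CX3CR1bright arrays, by 1.43 or 2.69-fold, and by 1.17 to 1.68 with 1 array left out. Both genes contributed, since Fcgr1 had a positive and Fcgr2b a negative difference. Fcgr3 minus Fcgr2b was -0.018 and 0.12 in CX3CR1low and 0.53 and 0.52 in CX3CR1bright cells, a change of 0.48 or 1.39-fold. Here both genes were lower in CX3CR1bright cells and Fcgr2b was lower by more.

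Fcgr4 minus Fcgr2b was -3.44 and -5.13 in CX3CR1low and -2.36 and -3.84 in CX3CR1bright cells, a change of 1.18 with overlap between the subsets. It was 0.34 without CX3CR1low replicate 2, 0.44 without CX3CR1bright replicate 1, 1.93 without CX3CR1bright replicate 2 and 2.03 without CX3CR1low replicate 1. Fcgr4 itself differed by 0.29 ± 0.73 and Fcgr2b by -0.89 ± 0.18. The same Fcgr2b difference enters every activating minus inhibitory change, so these changes are not independent of each other. Fcer1g minus the mean of Fcgr1, Fcgr3 and Fcgr4 was 2.32 and 2.81 in CX3CR1low and 2.01 and 2.53 in CX3CR1bright cells, which overlap, with a change of -0.29. With 1 array left out that change was -0.036 without CX3CR1bright replicate 1 and -0.053 without CX3CR1low replicate 2. It was -0.53 and -0.55 with CX3CR1low replicate 1 or CX3CR1bright replicate 2 removed. Fcgr4, whose replicates differed by 1.67 in CX3CR1low and by 1.58 in CX3CR1bright cells, is part of the receptor mean. A mean without Fcgr4 was not tested. The exact permutation test (two-sided, 6 arrangements) gave p = 0.333 for Fcgr1 and Fcgr3, the smallest that 2 arrays against 2 can give, and p = 0.667 for the Fcgr4 and Fcer1g quantities. For all 4 quantities p was therefore above 0.05 by design.

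**Figure D4:**
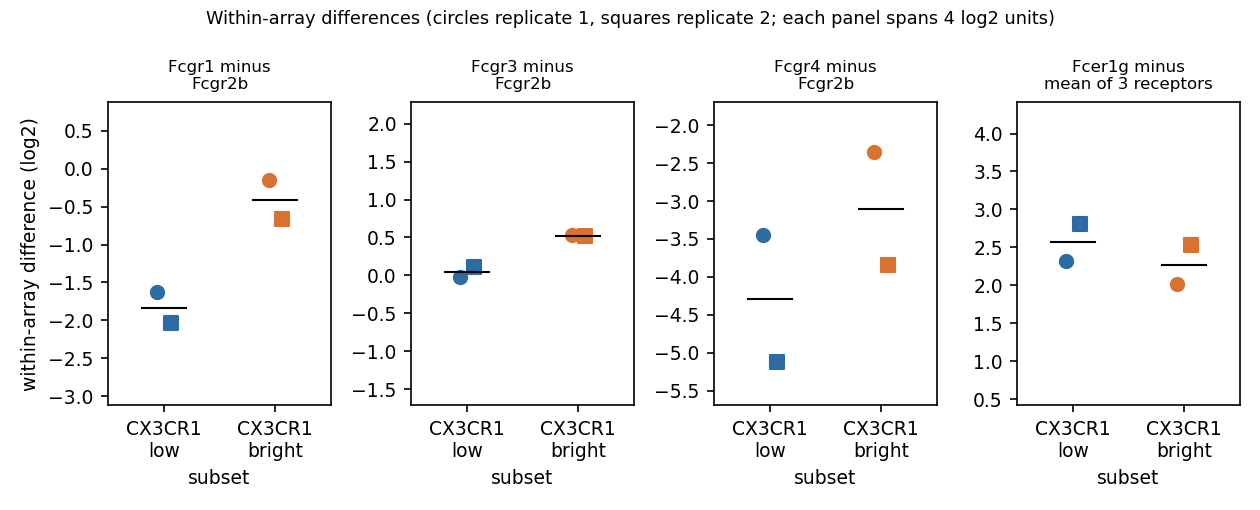
Within-array differences of log2 levels for each activating receptor minus Fcgr2b, and for Fcer1g minus the mean of Fcgr1, Fcgr3 and Fcgr4, on the 2 arrays of each subset (lines are means). Fcgr1 minus Fcgr2b and Fcgr3 minus Fcgr2b are higher on both CX3CR1bright arrays, by 1.43 and 0.48, and the other panels overlap.

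Around the receptors, 7 lists of related genes held 114 genes, of which 103 were measured and 90 tested. None passed (limma, 9 higher and 10 lower at an unadjusted p under 0.05). These are 19 of 90, where 18.8% of all tested genes were at that level, and the median difference was -0.043 against -0.070 over all tested genes. Over all tested genes 5578 differences were positive and 7555 negative. These shares stand beside the counts of each list below. The lists were chosen with earlier results of these data known, and no list as a whole was tested.

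Of the other Fc and Fc-like receptors 8 of 12 were tested and 0 passed (limma, 1 at an unadjusted p under 0.05). The lower gene was Trim21, the cytosolic antibody receptor, at 4.77 and 4.57 in CX3CR1low and 3.99 and 4.08 in CX3CR1bright cells, a difference of -0.63 ± 0.19 (limma, adjusted p = 0.184). The Fc receptor-like genes Fcrl1 and Fcrlb differed by 0.52 ± 0.28 and -0.36 ± 0.27, near the array medians. Of the other adaptors and signalling chains 3 of 5 were tested and 0 passed (limma, 0 at an unadjusted p under 0.05). Hcst, which encodes DAP10 and neighbours Tyrobp on chromosome 7, stood at 9.24 and 9.07 in CX3CR1low and 9.04 and 8.67 in CX3CR1bright cells, with a difference of -0.30 ± 0.22. The lymphocyte chains Cd79b and Cd3e, at levels of 3.44 to 5.50 and of 3.80 to 4.79, differed by -0.57 ± 0.66 and 0.25 ± 0.38, and each sign turned with 1 array left out, for Cd79b without CX3CR1bright replicate 2 (0.46) and for Cd3e without CX3CR1bright replicate 1 (-0.23).

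Among receptors that signal through Fcer1g, Lilra5, a leukocyte immunoglobulin-like receptor, stood at 3.51 and 3.98 in CX3CR1low and at 6.23 and 6.69 in CX3CR1bright cells, a difference of 2.71 ± 0.27 (limma, adjusted p = 0.0541), with the CX3CR1low level near background. Its adjusted p was 0.0302 with a stricter filter, 0.0482 after cyclic loess, 0.0201 with an intensity trend and 0.0332 without CX3CR1bright replicate 1. These settings passed 1.44%, 0.251%, 2.35% and 1.17% of all genes they tested. Under the other 9 alternatives Lilra5 did not pass, with an adjusted p of 0.0502 to 0.341 (limma). Il3ra, the alpha chain of the interleukin-3 receptor, differed by -0.90 ± 0.20, and Clec4n, which encodes the fungal receptor Dectin-2, by -0.71 ± 0.18 (limma, adjusted p = 0.129 and 0.154). Clec4e, which encodes the receptor Mincle, stood at 11.22 and 10.97 in CX3CR1low and at 11.42 and 11.36 in CX3CR1bright cells; it was named after its values were seen. Of 7 tested members 4 were higher and 3 lower, with a median of 0.019, or 5 and 2 after quantile normalization and after cyclic loess. None of the 7 passed (limma, 3 at an unadjusted p under 0.05, against 18.8% of all tested genes).

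Of receptors that signal through Tyrobp, 8 of 12 tested were higher and 4 lower, with a median of 0.27. None of the 12 passed (limma, 4 at an unadjusted p under 0.05, against 18.8% of all tested genes). Cd300c2, an activating receptor of the CD300 family, stood at 6.53 and 6.18 in CX3CR1low and at 7.68 and 7.37 in CX3CR1bright cells, a difference of 1.17 ± 0.23 (limma, adjusted p = 0.107). Trem1, an amplifier of inflammatory signals, differed by 1.07 ± 0.31 and Cd200r4, an activating relative of the CD200 receptor, by -0.83 ± 0.19 (limma, adjusted p = 0.176 and 0.128). These 3 genes are the ones of smallest p in their list, so their size says nothing about the other partners. Whether the difference of a partner and that of its adaptor differ was not tested.

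**Figure D5:**
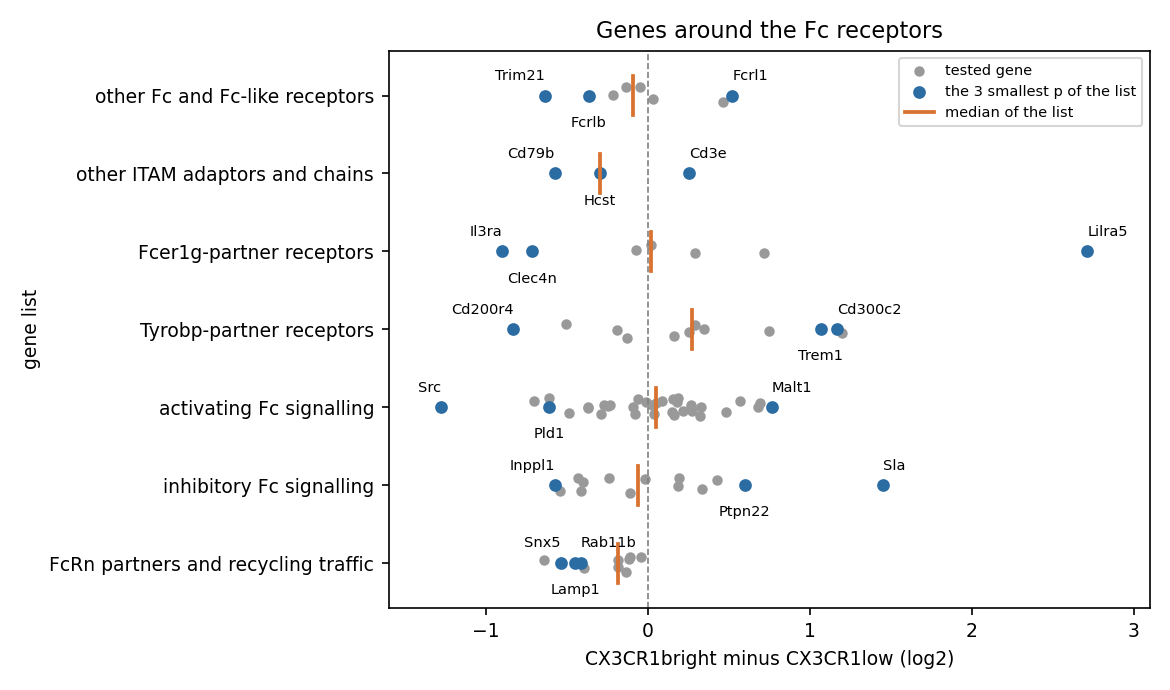
Differences CX3CR1bright minus CX3CR1low (log2) of the tested genes in 7 lists around the Fc receptors. Blue points are the 3 genes of each list with the smallest p, vertical bars are list medians, and Lilra5 at 2.71 and Sla at 1.45 lie farthest to the right and Src at -1.27 farthest to the left.

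Of genes that carry the activating signal, 35 of 38 were tested, 20 were higher and 15 lower, with a median of 0.049, or 23 and 12 after quantile normalization and 24 and 11 after cyclic loess. None of the 35 passed (limma, 7 at an unadjusted p under 0.05, against 18.8% of all tested genes). Src, a founding kinase of the family that phosphorylates the receptor motif, stood at 6.55 and 6.74 in CX3CR1low and at 5.25 and 5.48 in CX3CR1bright cells, a difference of -1.27 ± 0.20 (limma, adjusted p = 0.0907, and 0.0458 with an intensity trend). Malt1, the protease that acts with CARD9 and BCL10 downstream of SYK, differed by 0.77 ± 0.20 and the phospholipase D gene Pld1 by -0.61 ± 0.18 (limma, adjusted p = 0.155 and 0.179). Syk itself, named after its values were seen, stood at 8.57 and 8.62 in CX3CR1low and at 8.17 and 8.04 in CX3CR1bright cells, a difference of -0.49 ± 0.18 (limma, adjusted p = 0.245).

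Of the inhibitory signalling genes 14 of 15 were tested, 6 were higher and 8 lower, or 8 and 6 after quantile normalization and after cyclic loess. None of the 14 passed (limma, 3 at an unadjusted p under 0.05, against 18.8% of all tested genes). Sla, an adaptor that lowers the surface level of antigen receptors, stood at 7.98 and 7.47 in CX3CR1low and at 9.11 and 9.24 in CX3CR1bright cells, a difference of 1.45 ± 0.24 (limma, adjusted p = 0.0919, and 0.0340 with an intensity trend). Ptpn22, a phosphatase that acts on Src-family kinases, differed by 0.60 ± 0.20 and Inppl1, which encodes SHIP2, by -0.57 ± 0.18 (limma, adjusted p = 0.200 and 0.196). Inpp5d, which encodes the SHIP1 phosphatase that Fcgr2b recruits, stood at 9.51 and 9.92 in CX3CR1low and at 9.39 and 9.24 in CX3CR1bright cells, with a difference of -0.40 ± 0.22 (limma, adjusted p = 0.403); it too was named after its values were seen.

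Among partners of the recycling receptor and genes of endosomal traffic, 11 of 11 tested had a negative difference, with a median of -0.18, but 3 of the 11 were positive after quantile normalization and after cyclic loess. Over all tested genes 5578 differences were positive and 7555 negative, with a median of -0.070. None of the 11 passed (limma, 1 at an unadjusted p under 0.05, against 18.8% of all tested genes). Snx5, a sorting nexin of recycling tubules, stood at 8.66 and 8.65 in CX3CR1low and at 8.27 and 7.97 in CX3CR1bright cells, a difference of -0.54 ± 0.20 (limma, adjusted p = 0.244). The lysosomal membrane gene Lamp1 differed by -0.45 ± 0.18 and the recycling GTPase gene Rab11b by -0.41 ± 0.21. B2m, the light chain that Fcgrt needs, differed by -0.13 ± 0.19 with overlap between the subsets, and was named after its values were seen.

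Markers of other skin cells also stood at different levels on these arrays, and 0 of them passed the test. Of 4 tested Langerhans cell markers 4 and of 8 tested conventional dendritic cell markers 6 were higher in CX3CR1bright cells, with median differences of 1.76 and 1.37 (limma, 3 and 6 at an unadjusted p under 0.05 in this direction). Of 9 tested fibroblast markers 9 were higher (limma, 8 at that level) and of 10 tested keratinocyte markers 10 (limma, 3 at that level), where 7.03% of all tested genes were higher at that level. The log2 of the summed level was 9.49 to 9.50 in CX3CR1low and 10.41 to 10.80 in CX3CR1bright cells for Langerhans markers, and 8.67 to 9.04 against 9.60 to 9.66 for dendritic markers. The Langerhans sum was mostly Kcnn4, at 9.19 and 9.25 in CX3CR1low and at 9.86 and 10.27 in CX3CR1bright cells. On the CX3CR1low arrays the dendritic sum was mostly Irf4. That gene stood at 7.81 and 8.28 there and was lower, at 7.40 and 7.61, in CX3CR1bright cells. For 11 keratinocyte markers the log2 of the summed level was 9.82 to 10.34 against 10.74 to 11.97, and for 9 fibroblast markers 10.36 to 10.78 against 11.35 to 11.55. The keratinocyte excess lay mostly on CX3CR1bright replicate 2. The mean level of these markers was 7.81 there and 6.09 on CX3CR1bright replicate 1, against 5.74 and 5.23 on the CX3CR1low arrays. Of the B cell, natural killer cell and neutrophil markers measured, 4 of 7, 3 of 7 and 5 of 9 lay below the medians of all arrays, the B cell gene Ms4a1 and the neutrophil gene S100a8 among them. The neutrophil list also holds Csf3r, the receptor of a granulocyte growth factor, which stood at 8.67 and 8.74 in CX3CR1low and at 8.14 and 7.18 in CX3CR1bright cells. The log2 of the summed level in CX3CR1low against CX3CR1bright cells was 6.44 to 6.66 against 5.95 to 6.76 for B cells. It was 5.88 to 6.16 against 6.30 to 6.80 for natural killer cells and 8.93 to 8.97 against 7.86 to 8.56 for neutrophils. The neutrophil sum was mostly Csf3r. S100a8 (2.94 and 2.77 against 3.61 and 3.38) and S100a9 (2.84 and 3.17 against 4.41 and 3.65) were higher in CX3CR1bright cells but too dim to be tested. Of the 3 tested neutrophil markers 1 was higher and 2 lower. For 4 T cell markers the log2 of the summed level was 6.18 to 6.33 against 6.49 to 7.75. For 7 basophil markers, of which Mcpt8 and Prss34 lay below the medians of all arrays, it was 10.56 to 10.63 against 10.18 to 10.29. The basophil sum was mostly Cpa3, which is on the mast cell list too. The part of these cells in the differences of Fcgr2b, Fcgrt and Fcgr1 was not tested.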

How the data were processed

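The deposited table holds log2 levels of transcript clusters. Per the submitters' processing notes, the authors computed it by RMA in Expression Console 1.4. RMA corrects background, equalises the arrays and summarises probes. Build, annotation release and detection calls: not given in the sources used here. Gene names came from the 23521 of 34390 clusters with 1 symbol in the platform annotation, taking for each gene the cluster with the highest mean. Of these clusters 23328 matched the RefSeq gene table by Entrez identifier. Genes entered the test when 2 or more of the 4 arrays exceeded their own median, which left 13133 of 22180 genes. The subsets were tested against each other in limma 3.58.1 under R 4.3.3 (linear model with moderated variances, two-sided, Benjamini-Hochberg over all tested genes, threshold 0.05), with 2 residual degrees of freedom and 3.28 from the prior. The procedure was tested on simulated data with a common spread for all genes, for the recovery of set differences. That says nothing about the p-values where spreads differ between genes, as they do here. No depth exists for arrays, and their number, 4, limits the precision. The spread behind each limma p-value is that between pools, drawn by the prior toward the spread of all tested genes. Fcgr2b had standard deviations of 0.0086 in CX3CR1low and 0.070 in CX3CR1bright cells. Its limma standard error of 0.18 rests mostly on that prior.

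Members and gene lists were chosen with earlier results of these data known. All 8 members were named, with the 3 genes of smallest p in each of 7 related lists, and genes outside this rule are marked, except markers of other cell types and the genes nearest to Fcer1g or Fcgr4 in pattern. Of the 114 listed related genes 11 were not analysed here. Motifs were counted in RefSeq promoter windows. Alternatives were other filters, scalings, variance models, the mean of a gene's clusters, the replicate block and leaving out each array.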

Additional observations from a re-analysis of the deposited data

How the results depend on the processing

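For the 8 Fc receptor and adaptor genes, 88 of 92 values under alternative settings kept the direction of the difference. The 4 that did not were Fcgr4 without CX3CR1low replicate 2 (-0.54) and without CX3CR1bright replicate 1 (-0.50), and Tyrobp after quantile normalization (0.028) and without CX3CR1bright replicate 2 (0.067). For the 26 other genes followed, 329 of 333 values kept their direction, and the exceptions were Cd79b without CX3CR1bright replicate 2 (0.46), Cd3e without CX3CR1bright replicate 1 (-0.23), and Ms4a2 without CX3CR1low replicate 1 (-0.21) and without CX3CR1bright replicate 2 (-0.35). Leaving out each array in turn gave -0.54 to 1.13 for Fcgr4, -0.29 to 0.067 for Tyrobp, -1.61 to 0.46 for Cd79b, -0.23 to 0.74 for Cd3e and -0.35 to 0.42 for Ms4a2. The cause was not tested. The count of the 8 genes past the threshold, 0, was 1 (Fcgr2b) with an intensity trend and 0 with any array left out. The count of related genes, 0, was 3 with an intensity trend (Lilra5, Sla and Src), and 1, Lilra5, with the stricter filter, after cyclic loess, and without CX3CR1bright replicate 1; leaving out 1 array gave 0 to 1. All other settings gave 0. The count over all tested genes was 18, and ran from 0 (either CX3CR1low array or CX3CR1bright replicate 2 left out) to 308 with an intensity trend; it was 154 without CX3CR1bright replicate 1, 129 with the stricter filter, 33 after cyclic loess and 1 without a filter, after quantile normalization and with a robust prior. With the replicate number as a block (replicate block) the count was 0 for the 8 genes, 0 for related genes and 0 over all genes. Deviations of same-numbered arrays from their group means correlated at 0.155 over 13133 genes. There are 2 pairs, and no label ties the numbers to litters. Whether same-numbered arrays share more than a number is not known from the labels and was not tested. Changes of within-array differences kept their direction under the 3 scalings, the mean of a gene's clusters and each array left out. Median differences over all tested genes were -0.070, or 0.017 after cyclic loess.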

Other observations

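Of the 12 other genes that, like Fcgr4, stood higher by at least 1.58 on the replicate 1 than on the replicate 2 array in both subsets, 6 are given with their values. These 6 are not the ones with the largest gaps. The nitric oxide synthase gene Nos2 stood at 7.98 and 3.97 on CX3CR1low replicates 1 and 2 and at 6.50 and 3.13 on CX3CR1bright replicates 1 and 2. The chemokine gene Cxcl9 stood at 8.75 and 5.97, and at 9.38 and 5.62, in the same order. The guanylate-binding protein genes Gbp4 (6.37 and 3.35, and 6.47 and 3.16) and Gbp8 (5.88 and 3.26, and 5.53 and 2.13) and the GTPase gene Iigp1 (7.73 and 5.59, and 7.59 and 5.65) had the same order. The monocyte antigen gene Ly6c2 stood at 7.54 and 3.90, and at 6.89 and 4.66.

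The remaining 6 genes were AW112010, Cyp2g1, Mir222, Trav9d-3, Fa2h and Olfr75-ps1. Of these, Cyp2g1 stood at 6.14 and 2.91 on CX3CR1low replicates 1 and 2 and at 7.76 and 2.66 on CX3CR1bright replicates 1 and 2. CX3CR1bright minus CX3CR1low was -1.16 for Nos2, 0.14 for Cxcl9, -0.044 for Gbp4, -0.74 for Gbp8, -0.038 for Iigp1 and 0.051 for Ly6c2 on the log2 scale, and ran from -1.03 (Mir222) to 2.23 (Trav9d-3) over the remaining 6. The whole set of genes was picked by the size of this gap after the values were seen, so the gap is a description with no test. The first 6 were then taken from the set with the genes known, and not by rank of the gap.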
